A study of Homo sapiens with 20 samples.

Results

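The genes described here are 8 enzymes of methionine activation and urea synthesis in HEK293-GR cells, a human embryonic kidney line that expresses the glucocorticoid receptor constitutively. They are the methionine adenosyltransferase genes MAT1A, MAT2A and MAT2B, and the nitrogen genes CPS1, OTC, ASS1, ASL and ARG2, which makes 8 of the 27896 gene symbols in the count table. MAT1A and CPS1 were selected on their RNA levels in these libraries, which were higher after depletion of the corepressor BCOR, and the 6 others were taken because they work beside them. The 4 RNA groups had 4 libraries each. Cells received siRNA against BCOR (siBCOR) and then 100 nM dexamethasone (dex), a synthetic glucocorticoid, for 6 h, or siBCOR and the ethanol vehicle for 6 h. The reference cells received a control siRNA (siNON) and then dex or vehicle in the same way. Both siRNAs were used at 20 nM for 72 h, and all 16 cultures came from the same receptor-expressing line in steroid-depleted medium. BCOR binding was mapped by ChIP-seq after 1 h of dex or vehicle, with 2 libraries each.

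S-adenosylmethionine is the main methyl donor of the cell, and methionine adenosyltransferases make it from methionine and ATP. MAT1A is the form of adult hepatocytes, MAT2A is the form of most other tissues and of dividing cells, and MAT2B is the regulatory subunit of MAT2A. In the liver the urea cycle disposes of ammonia: CPS1 and OTC act in mitochondria, ASS1 and ASL follow in the cytosol, and arginase releases urea, with ARG2 as the mitochondrial arginase found outside the liver. BCOR is a transcriptional corepressor that acts with BCL6 and in a variant Polycomb complex.

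MAT1A and CPS1 are the members the results turn on, MAT2A is the counterpart of MAT1A, and ASS1 is the member nearest to a BCOR peak, so the 300 bases around the start of each are printed here. They run 5′ to 3′ on the strand of the gene, from 250 bases before the start to 50 after it, and come from RefSeq on GRCh38.p14, with each CpG dinucleotide in capitals.
MAT1A (chr10:80289609-80289908, minus strand): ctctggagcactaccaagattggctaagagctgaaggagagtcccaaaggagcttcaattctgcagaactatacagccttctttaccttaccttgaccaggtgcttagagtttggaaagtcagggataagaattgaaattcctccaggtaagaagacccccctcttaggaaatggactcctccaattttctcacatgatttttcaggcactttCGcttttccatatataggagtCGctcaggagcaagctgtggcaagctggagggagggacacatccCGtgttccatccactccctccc
CPS1 (chr2:210477435-210477734, plus strand, the most upstream of 3 windows): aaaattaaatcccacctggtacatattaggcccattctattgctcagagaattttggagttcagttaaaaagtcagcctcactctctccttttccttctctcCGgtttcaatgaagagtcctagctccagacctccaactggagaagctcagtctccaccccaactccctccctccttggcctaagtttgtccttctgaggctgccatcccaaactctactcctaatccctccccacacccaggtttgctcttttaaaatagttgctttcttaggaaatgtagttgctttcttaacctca
MAT2A (chr2:85538918-85539217, plus strand): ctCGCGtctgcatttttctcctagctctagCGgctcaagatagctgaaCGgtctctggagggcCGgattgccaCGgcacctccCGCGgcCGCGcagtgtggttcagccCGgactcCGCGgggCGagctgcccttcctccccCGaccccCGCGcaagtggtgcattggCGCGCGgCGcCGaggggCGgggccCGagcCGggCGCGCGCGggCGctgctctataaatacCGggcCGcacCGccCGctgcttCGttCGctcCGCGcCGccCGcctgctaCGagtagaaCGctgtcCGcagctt
ASS1 (chr9:130444457-130444756, plus strand, the upstream of 2 overlapping windows): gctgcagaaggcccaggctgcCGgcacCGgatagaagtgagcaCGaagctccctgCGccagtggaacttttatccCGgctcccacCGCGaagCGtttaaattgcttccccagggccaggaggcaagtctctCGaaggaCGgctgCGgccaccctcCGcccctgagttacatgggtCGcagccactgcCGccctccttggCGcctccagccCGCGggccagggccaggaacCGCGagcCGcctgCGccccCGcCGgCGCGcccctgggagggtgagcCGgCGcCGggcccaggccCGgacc

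The printed MAT1A window held 3 CpG dinucleotides and the printed CPS1 window 1, against 43 in the MAT2A window and 29 in the ASS1 window. The other windows of CPS1 held 3 each, and the window of OTC held 3. ASL had 30 and ARG2 had 31, whereas the 2 windows of MAT2B had 1 and 30 and both windows of ASS1 had 29. The median over all 35116 RefSeq windows of this length was 14, so the windows of MAT1A, CPS1 and OTC lay below it, and those of MAT2A, ASS1, ASL and ARG2 above it. GC content was 48% in the MAT1A window and 45.3% in the printed CPS1 window, against 71% in the MAT2A window and a median of 58.7% over all windows.

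**Figure D1:**
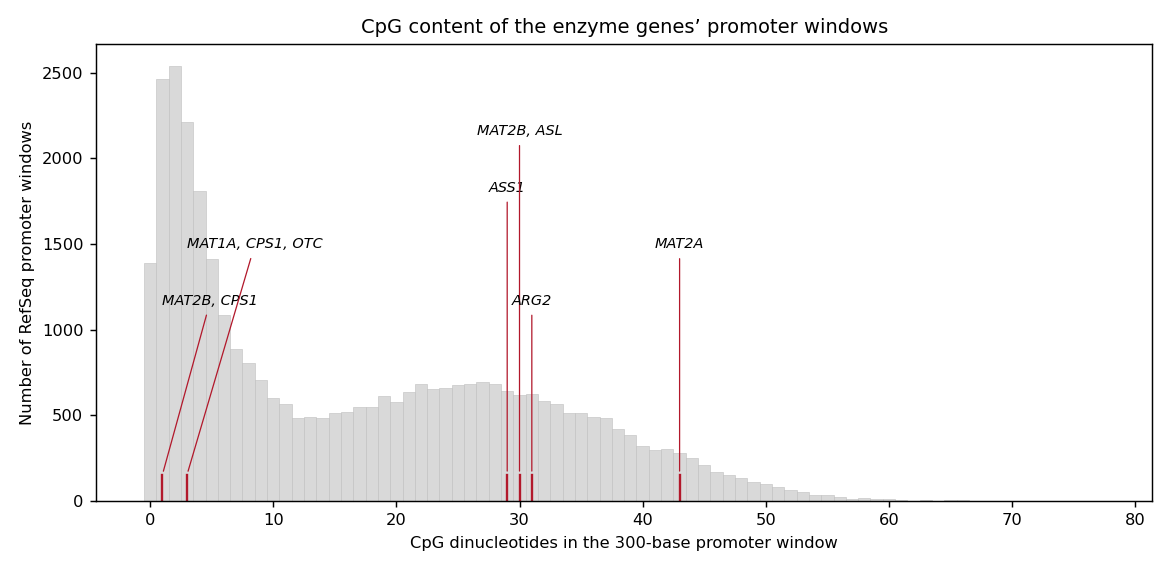
Number of CpG dinucleotides in the 300-base promoter window (x axis) against the number of RefSeq windows with that count (y axis, grey bars), with red marks for the 12 windows of the 8 genes. MAT1A, CPS1 and OTC stand at 1 to 3, MAT2A stands at 43, and MAT2B has one window at 1 and another at 30.

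Motifs were looked for on both strands of each window, as letters only. TATAAA was in the windows of MAT2A and OTC and in 11.5% of all windows. TGACGTCA, the full cyclic AMP response element, was in the ARG2 window and in 1.85% of all windows. TTCNNNGAA, the core of STAT sites, was in the printed CPS1 window and in 7.66% of all windows. AGAACA followed by any 3 bases and TGTTCT, the full palindromic glucocorticoid response element, was in no window of the 8 genes and in 0.00285% of all windows.

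The 16 RNA libraries held 18580299 to 28054808 counts over the chosen transcripts. Levels are given as CPM, the read counts scaled to the size of each library, and a gene was called where edgeR's quasi-likelihood test gave a two-sided Benjamini-Hochberg adjusted p under 0.05 over the 16432 genes tested. BCOR RNA was lower in every siBCOR library, with 14.8 ± 0.706 CPM in siBCOR cells with dex and 93.8 ± 15.9 CPM in siNON cells with dex (SD, n = 4 each). With vehicle it was 22.4 ± 0.796 CPM in siBCOR cells and 196.1 ± 29.4 CPM in siNON cells. All 11 genes listed as marking the HEK293 line were detected in every library, and they moved with the groups. Their summed level was 1199 to 1263 CPM in siBCOR cells with dex, 1265 to 1423 in siBCOR cells with vehicle, 1440 to 1540 in siNON cells with dex and 1371 to 1631 in siNON cells with vehicle. With dex 7 of the 11 were called lower and 1 higher in siBCOR cells, beside 12.5% lower and 10.5% higher over all genes. In siNON cells 7 were lower and 2 higher with dex, beside 8.64% and 10.7%. After depletion 4 were lower and 1 higher in dex, beside 18.8% and 20.7%. In vehicle 4 were lower and 0 higher after depletion, beside 8.23% and 8.86%. The part of these 11 markers in the results on the enzymes was not tested. Of 25 hepatocyte markers, 18 were under 1 CPM in every library, among them ALB, APOA1, TTR, SERPINA1 and HNF4A, and APOC3 was at 0. Of 9 proximal tubule markers, 4 were under 1 CPM in every library and SLC22A6 was at 0. The 3 libraries farthest from their groups were siNON dex replicate 4, siNON vehicle replicate 3 and siBCOR vehicle replicate 2, with a root mean square deviation of 0.28, 0.266 and 0.257 on the log2 scale, against at most 0.198 in the others. In whole cultures, fewer cells that make an RNA and less RNA per cell cannot be told apart.

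MAT1A, a single transcript (NM_000429) on hg19 chr10:82031576-82049434, minus strand, was low in level. It had 7.39, 7.41, 7.17 and 7.20 CPM in siBCOR cells with dex, 6.51, 6.94, 6.03 and 6.03 CPM in siBCOR cells with vehicle, 5.06, 3.98, 4.94 and 4.37 CPM in siNON cells with dex, and 2.79, 3.63, 3.13 and 3.21 CPM in siNON cells with vehicle. The 4 groups did not overlap, with siBCOR dex the highest and siNON vehicle the lowest. These levels rest on 138 to 210 reads per library in siBCOR cells with dex, 122 to 165 in siBCOR cells with vehicle, 78 to 116 in siNON cells with dex and 70 to 75 in siNON cells with vehicle. The depletion difference, which chose the gene and is given as a description, was 0.67 ± 0.0949 (SE) on the log2 scale in dex, or 1.59-fold, and 1.00 ± 0.1 in vehicle, or 2.01-fold.

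The hormone also raised MAT1A in siNON cells. There it averaged 4.59 ± 0.506 CPM with dex and 3.19 ± 0.345 CPM with vehicle (SD, n = 4 each), a log2 difference of 0.53 ± 0.104 with an adjusted p of 0.00113 in edgeR's test. In siBCOR cells it averaged 7.29 ± 0.125 CPM with dex and 6.38 ± 0.439 CPM with vehicle, a log2 difference of 0.19 ± 0.0915 that was not called (adjusted p = 0.138). The difference between these hormone effects, tested as the interaction, was -0.34 ± 0.138 with an adjusted p of 0.235, and it was called under none of the 23 alternative settings run. These contrasts share libraries with the difference that chose the gene. BCOR RNA was itself lower with dex, at -0.60 on the log2 scale in siBCOR cells (adjusted p = 0.00155) and -1.06 in siNON cells (adjusted p = 1.45e-06), and its part in the MAT1A difference was not tested. The summed level of the 25 hepatocyte markers did not run in the order of MAT1A: it spanned 37.1 to 42.6 CPM in siBCOR cells with dex, 58.3 to 62.7 in siBCOR cells with vehicle, 42.0 to 49.9 in siNON cells with dex and 55.1 to 66.8 in siNON cells with vehicle. That of the 9 proximal tubule markers was 46.1 to 49.0, 68.2 to 78.3, 45.5 to 52.1 and 63.3 to 75.9 CPM in the same groups, and the part of either list in the MAT1A levels was not tested. Few genes carry these sums: FOXA1 had 15.2 to 44.9 CPM over the libraries, and LRP2 had 29.6 to 63.7 CPM. The median log2 difference between dex and vehicle over the markers tested was 0.07 in siBCOR cells and 0.09 in siNON cells for the 10 hepatocyte markers, and -0.01 and 0.11 for the 5 proximal tubule markers. These medians hide calls in both directions. Of the 10 hepatocyte markers, 2 were higher and 3 lower with dex in siBCOR cells, beside 10.5% and 12.5% over all genes. In siNON cells 3 were higher and 3 lower, beside 10.7% and 8.64%. Of the 5 proximal tubule markers, 0 were higher and 1 lower with dex at either siRNA. Between siBCOR and siNON cells the median was -0.25 in dex and 0.03 in vehicle for the 10 hepatocyte markers. After depletion 1 of these was higher and 1 lower in dex, beside 20.7% and 18.8% over all genes. In vehicle 2 were higher and 0 lower, beside 8.86% and 8.23%. For the 5 proximal tubule markers the median was 0.30 and 0.39, with none of them called, beside 0.02 over all genes in either treatment.

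CPS1, the mitochondrial enzyme that makes carbamoyl phosphate from ammonia, was measured as NM_001122633 on hg19 chr2:211342406-211543831, plus strand. It had 9.05, 10.6, 9.73 and 9.08 CPM in siBCOR cells with dex, 11.2, 8.29, 8.80 and 9.70 CPM in siBCOR cells with vehicle, 4.61, 5.10, 5.62 and 5.27 CPM in siNON cells with dex, and 4.14, 5.56, 4.95 and 4.56 CPM in siNON cells with vehicle. Every siBCOR library was above every siNON library, and within either siRNA the dex and vehicle libraries overlapped. The depletion difference, again a description, was 0.90 ± 0.112 on the log2 scale in dex, or 1.87-fold, and 0.99 ± 0.112 in vehicle, or 1.99-fold.

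Dex gave no called change of CPS1. The log2 difference between dex and vehicle was 0.02 ± 0.105 in siBCOR cells (adjusted p = 0.928) and 0.10 ± 0.119 in siNON cells (adjusted p = 0.605), and the interaction was -0.09 ± 0.159 (adjusted p = 0.758). The sign of the siBCOR value turned with upper-quartile scaling. The 3 CPS1 transcripts share most of their exons and reads. The shortest, NM_001122634, which starts farthest downstream, averaged 7.61 CPM in siBCOR cells with dex, 7.62 in siBCOR cells with vehicle, 4.18 in siNON cells with dex and 4.02 in siNON cells with vehicle. Because the reads are shared, its split between siRNAs is not independent of the one that chose the gene, and is a description.

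**Figure D2:**
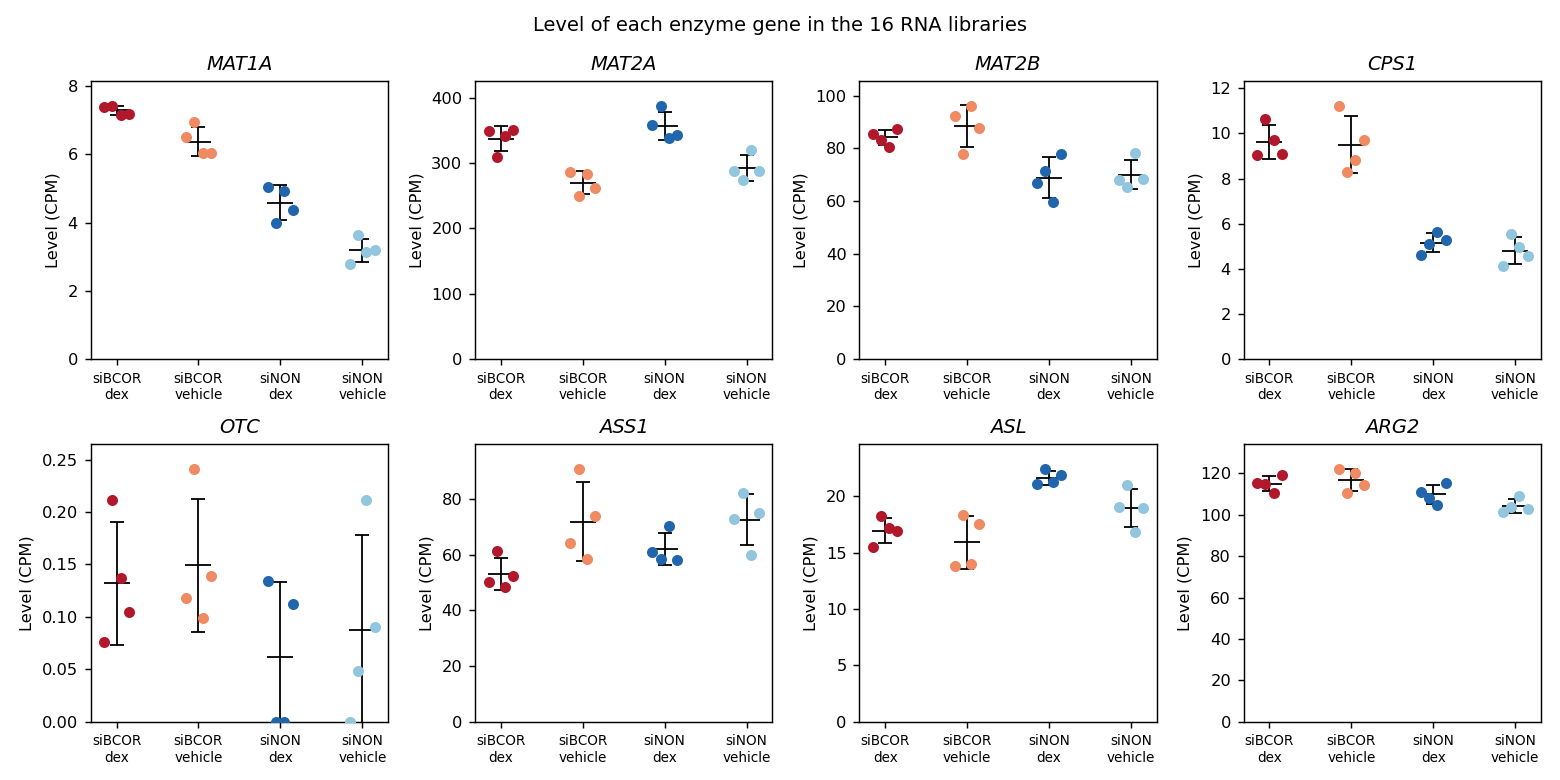
Level of each gene in CPM (y axis, from 0) in the 16 RNA libraries, by group (x axis), with points for libraries and bars for the mean ± SD (n = 4), where the bars of OTC in siNON cells are cut at 0. The MAT1A groups step down without overlap, CPS1 splits by siRNA into libraries above 8 CPM and below 6 CPM, and MAT2A splits by hormone within each siRNA.

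MAT2A, the methionine adenosyltransferase of most cells outside the liver, moved with the hormone and had no called depletion change. On hg19 chr2:85766101-85772403, plus strand, it had 348.5, 309.3, 340.6 and 350.5 CPM in siBCOR cells with dex, 285.9, 249.1, 282.9 and 262.3 CPM in siBCOR cells with vehicle, 357.6, 386.7, 338.1 and 342.9 CPM in siNON cells with dex, and 288.1, 273.9, 320.1 and 288.4 CPM in siNON cells with vehicle. Within each siRNA all dex libraries were above all vehicle libraries, while at each treatment the siBCOR and siNON libraries overlapped. Dex raised it by 0.32 ± 0.0657 on the log2 scale in siBCOR cells (adjusted p = 0.00166) and by 0.28 ± 0.0657 in siNON cells (adjusted p = 0.00445). The interaction was 0.04 ± 0.0928 with an adjusted p of 0.831, and its sign turned with upper-quartile scaling. The depletion difference was -0.08 ± 0.0656 in dex (adjusted p = 0.34) and -0.12 ± 0.0657 in vehicle (adjusted p = 0.25). The 3′ end of MAT2A overlaps that of GGCX on the other strand; GGCX was lower after depletion, at -0.49 in dex (adjusted p = 2.17e-05) and -0.37 in vehicle (adjusted p = 0.000536), and its share of the reads counted for MAT2A was not tested.

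MAT2B, the regulatory subunit, rose with depletion at both treatments. On hg19 chr5:162932534-162946359, plus strand, it had 85.4, 83.1, 80.7 and 87.5 CPM in siBCOR cells with dex, 92.2, 77.7, 95.9 and 87.8 CPM in siBCOR cells with vehicle, 66.8, 71.3, 59.5 and 77.9 CPM in siNON cells with dex, and 67.8, 65.4, 78.0 and 68.4 CPM in siNON cells with vehicle. All siBCOR libraries were above all siNON libraries in dex, whereas in vehicle the lowest siBCOR library was just under the highest siNON library. The log2 difference between siBCOR and siNON cells was 0.29 ± 0.084 in dex (adjusted p = 0.0138), or 1.22-fold, and 0.34 ± 0.084 in vehicle (adjusted p = 0.0109), or 1.26-fold. Without siNON dex replicate 3, the library lowest in MAT2B, the difference in dex was 0.225 and was not called (adjusted p = 0.0568). Dex moved MAT2B by -0.07 ± 0.0837 in siBCOR cells (adjusted p = 0.57) and -0.02 ± 0.0842 in siNON cells (adjusted p = 0.892), neither of them called.

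Scaled to transcript length, MAT1A remained a small share of the 2 catalytic genes. MAT1A had 2.15 CPM per kilobase in siBCOR cells with dex, 1.88 in siBCOR cells with vehicle, 1.35 in siNON cells with dex and 0.94 in siNON cells with vehicle, while MAT2A had 112.6, 90.2, 119.0 and 97.7 CPM per kilobase in the same groups. MAT1A thus made up 1.88 ± 0.131% of the summed MAT1A and MAT2A level in siBCOR cells with dex, 2.05 ± 0.241% in siBCOR cells with vehicle, 1.13 ± 0.168% in siNON cells with dex and 0.958 ± 0.144% in siNON cells with vehicle (SD, n = 4 each). The siBCOR libraries spanned 1.78 to 2.40% and the siNON libraries 0.847 to 1.27%, with no overlap. This share is built on the gene chosen for its depletion difference and is a description.

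ASS1, which joins citrulline and aspartate, was lower with dex in siBCOR cells. On hg19 chr9:133320094-133376661, plus strand, it had 50.3, 61.4, 48.3 and 52.3 CPM in siBCOR cells with dex, 64.1, 90.7, 58.6 and 74.0 CPM in siBCOR cells with vehicle, 60.9, 58.6, 70.3 and 58.2 CPM in siNON cells with dex, and 72.9, 82.2, 60.0 and 75.1 CPM in siNON cells with vehicle. The groups overlapped, and the vehicle libraries spread most. It fell by 0.44 ± 0.125 on the log2 scale with dex in siBCOR cells (adjusted p = 0.0177) and the value in siNON cells was -0.23 ± 0.125 (adjusted p = 0.243), with an interaction of -0.21 ± 0.176 (adjusted p = 0.474). Without siBCOR vehicle replicate 2, the library highest in ASS1, the siBCOR difference was -0.30 with an adjusted p of 0.0692; without siBCOR dex replicate 1 or 3 the adjusted p was 0.0535 and 0.0563. The depletion difference was -0.22 ± 0.125 in dex (adjusted p = 0.159) and -0.01 ± 0.124 in vehicle (adjusted p = 0.958).

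ASL, which splits argininosuccinate into arginine and fumarate, was lower after depletion in dex. On hg19 chr7:65540834-65558329, plus strand, it had 15.5, 18.2, 17.2 and 16.9 CPM in siBCOR cells with dex, 13.8, 18.4, 14.04 and 17.5 CPM in siBCOR cells with vehicle, 21.1, 22.4, 21.2 and 21.9 CPM in siNON cells with dex, and 19.0, 21.0, 16.8 and 19.0 CPM in siNON cells with vehicle. The siBCOR and siNON libraries did not overlap in dex and overlapped in vehicle. The depletion difference was -0.35 ± 0.0963 in dex (adjusted p = 0.0101), or 0.784-fold, and -0.25 ± 0.0971 in vehicle, which was not called (adjusted p = 0.0851). The vehicle value was called without siNON vehicle replicate 3, at -0.355 (adjusted p = 0.0232), and without siBCOR vehicle replicate 2, at -0.327 (adjusted p = 0.0242). The interaction was -0.10 ± 0.137 with an adjusted p of 0.669, and no hormone difference was called, with adjusted p-values of 0.528 in siBCOR cells and 0.193 in siNON cells.

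ARG2, the mitochondrial arginase, was higher after depletion in vehicle. On hg19 chr14:68086579-68118436, plus strand, it averaged 115.0 ± 3.51 CPM in siBCOR cells with dex, 116.8 ± 5.26 in siBCOR cells with vehicle, 109.8 ± 4.53 in siNON cells with dex and 104.3 ± 3.40 in siNON cells with vehicle. In vehicle the siBCOR libraries had 122.1, 110.5, 120.0 and 114.6 CPM and the siNON libraries 101.3, 103.7, 109.2 and 103.0 CPM, with no overlap. The depletion difference in vehicle was 0.16 ± 0.052 (adjusted p = 0.0393), but it was called under only 6 of 24 alternative settings, with adjusted p-values of 0.0189 to 0.173 over them. In dex it was 0.07 ± 0.052 (adjusted p = 0.305), and no hormone difference of ARG2 was called. The end of ARG2 overlaps VTI1B on the other strand, which was called in no comparison.

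OTC, the second mitochondrial enzyme of the cycle, was at the limit of detection. On hg19 chrX:38211736-38280703, plus strand, its read counts were 2, 6, 3 and 2 in siBCOR cells with dex, 3, 5, 2 and 3 in siBCOR cells with vehicle, 3, 0, 0 and 2 in siNON cells with dex, and 0, 1, 5 and 2 in siNON cells with vehicle. The counts overlapped between all groups, and their sums were 13, 13, 5 and 8 reads in the same order. OTC did not pass the filter on low counts, so it was not tested and no fold is given.

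**Figure D3:**
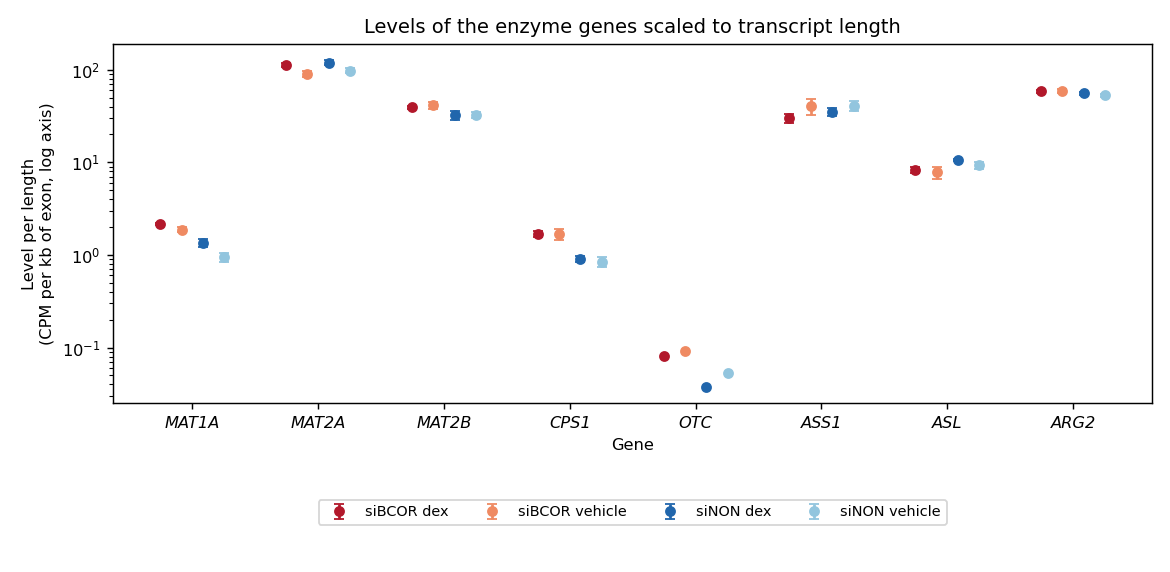
Mean level per kilobase of transcript (y axis, log scale) of the 8 genes (x axis) in the 4 RNA groups, with bars for the SD over 4 libraries, left out for OTC because 3 siNON libraries had no read. MAT2A lies between 90.2 and 119.0 CPM per kilobase and ARG2 between 52.9 and 59.3, MAT1A and CPS1 lie between 0.845 and 2.15, and OTC is at 0.0914 or less.

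Per kilobase the 8 genes spread widely. In siBCOR cells with vehicle MAT2A had 90.2 CPM per kilobase, ARG2 59.3, MAT2B 41.2 and ASS1 40.6, and ASL had 7.81. MAT1A had 1.88, CPS1 had 1.67 and OTC had 0.0914. In siNON cells with vehicle MAT1A had 0.94 and CPS1 0.845 CPM per kilobase, so these 2 liver enzymes were in all groups above OTC and below the other 5.

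Set side by side, the 5 related enzymes tested did not move as a group with depletion. In dex 39.5% of all genes tested were called, 20.7% higher and 18.8% lower, which is 3407 higher and 3084 lower, against 2818 higher and 3711 lower with upper-quartile scaling. There, of the 5 enzymes tested, MAT2B was higher, ASL was lower and 3 were not called. In vehicle 17.1% of all genes were called, 8.86% higher and 8.23% lower, which is 1456 higher and 1352 lower, against 1048 higher and 1539 lower with DESeq2's size factors. There MAT2B and ARG2 were higher, none was lower and 3 were not called. Over 24 alternatives the number of the 5 higher in vehicle was 1 in 18 and 2 in 6, and the number lower was 1 in 5. In dex the number higher was 1 in 23 of the 24, and the number lower was 1 in 23. The siBCOR and siNON libraries did not overlap for 2 of the 5, MAT2B and ASL, in dex, and for 1, ARG2, in vehicle, against 34.2% and 18.0% of all genes. The median log2 difference of the 5 was -0.08 in dex and -0.01 in vehicle, against 0.02 in either treatment for all genes. Without siNON dex replicate 3 the count of all genes called in dex was 4197 where it was 6491 with it, and without siBCOR vehicle replicate 1 the count in vehicle was 1809 where it was 2808.

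With dex in siBCOR cells 23.1% of all genes were called, 10.5% higher and 12.5% lower, and of the 7 members tested MAT2A was higher, ASS1 was lower and 5 were not called. With dex in siNON cells 19.4% were called, 10.7% higher and 8.64% lower, and MAT1A and MAT2A were higher, none was lower and 5 were not called. The dex and vehicle libraries did not overlap for MAT1A and MAT2A in siBCOR cells and for MAT1A, MAT2A and ASL in siNON cells, which is 2 and 3 of the 7, against 30.7% and 19.9% of all genes. MAT1A was chosen on a depletion difference in the same libraries, so its place in these counts is not independent of that choice. Of the 5 related enzymes tested, 1 was higher and 0 lower with dex in siNON cells. In the interaction 0.0974% of all genes were called, which is 16 genes, and 3162 had an unadjusted p under 0.05. None of the 7 members was called in edgeR's test, and DESeq2, which called 96 genes, called none of the 7 either. With an unadjusted p under 0.05 there was 1 of the 7, MAT1A, which was chosen on group levels that also enter this contrast. The count of genes called by edgeR ran from 2 to 2540 when each library was left out in turn, and moved by more than 1.5 times for each of the 16.

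**Figure D4:**
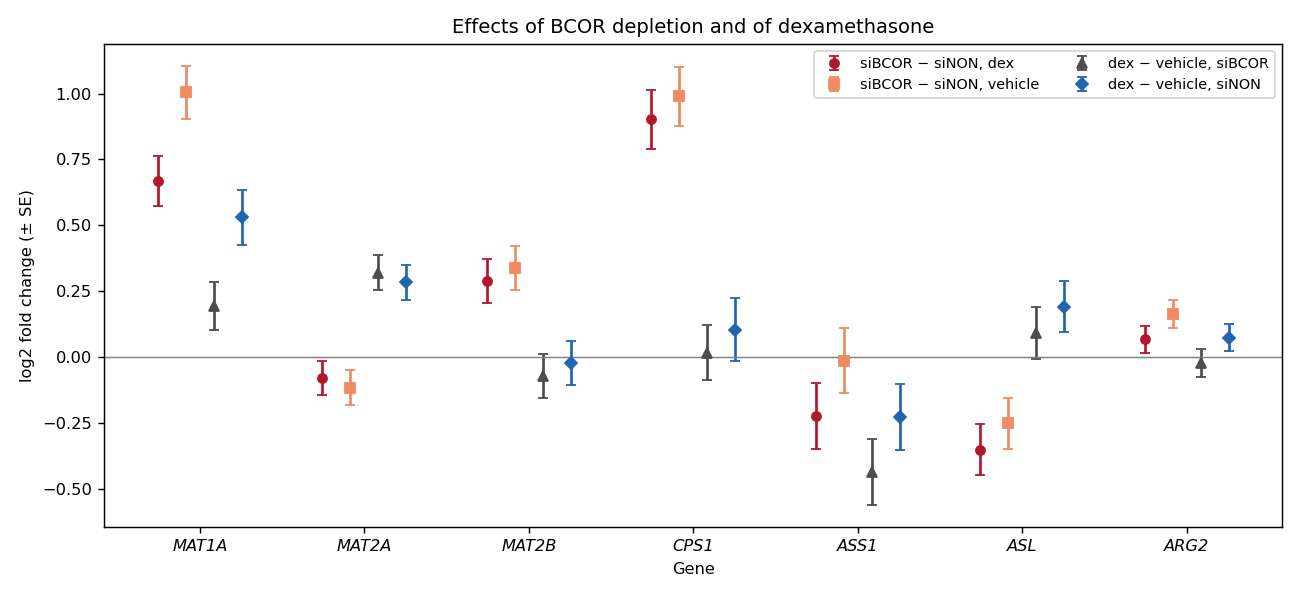
Log2 fold change ± SE (y axis) of the 7 tested genes (x axis), for siBCOR over siNON in dex (red circles) and in vehicle (orange squares), and for dex over vehicle in siBCOR (grey triangles) and in siNON cells (blue diamonds). MAT1A and CPS1, chosen for their depletion difference, lie between 0.67 and 1.00 for depletion, and the other 5 lie between -0.35 and 0.34.

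Other enzymes of the methionine cycle and the pathways linked to it changed in both directions. Of 25 genes of the methionine cycle, salvage and methyl use, 23 were tested. After depletion in dex 5 were higher, 7 lower and 11 not called, with a median log2 difference of -0.07, beside 20.7% higher and 18.8% lower and a median of 0.02 over all genes. The number higher was 2 without siNON dex replicate 3, and 3 without siBCOR dex replicate 1 or siNON dex replicate 1 or 2. AHCY, which hydrolyses S-adenosylhomocysteine, had 471.9 ± 14.7 CPM in siBCOR cells with dex and 646.5 ± 22.0 in siNON cells with dex, a log2 difference of -0.45 (adjusted p = 0.00012), and it was also lower in vehicle, at -0.30 (adjusted p = 0.00523). Spermidine synthase SRM was lower, at -0.45 in dex (adjusted p = 0.00256). Spermine synthase SMS was higher, at 0.28 in dex (adjusted p = 0.00173) and 0.22 in vehicle (adjusted p = 0.0142). ADI1 of the salvage pathway was lower, at -0.37 in dex (adjusted p = 0.00149) and -0.23 in vehicle (adjusted p = 0.0466). In vehicle SMS was the 1 gene higher, AHCY and ADI1 were the 2 lower, 20 were not called, and the median was 0.03, beside 8.86% higher, 8.23% lower and a median of 0.02 over all genes. These counts moved with the setting: the number lower was 1 in 15 of 24 alternatives and 4 without siNON vehicle replicate 3, and the number higher was 0 without that library, 2 without siBCOR vehicle replicate 3 and 3 without siBCOR or siNON vehicle replicate 2.

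With dex, GNMT, the glycine methyltransferase that in liver spends excess S-adenosylmethionine, rose at both siRNAs. It had 3.37 ± 0.493 CPM with dex and 2.15 ± 0.557 with vehicle in siBCOR cells, a log2 difference of 0.63 (adjusted p = 0.00721). In siNON cells it had 4.097 ± 0.335 CPM with dex and 2.31 ± 0.144 with vehicle, a log2 difference of 0.82 (adjusted p = 0.000686). In siBCOR cells 2 of the 23 genes were higher with dex, 4 lower and 17 not called, beside 10.5% higher and 12.5% lower over all genes. The number higher was 1 in 14 of 24 alternatives, and the number lower was 2 without siBCOR dex replicate 3 or siBCOR vehicle replicate 4. Among the lower ones were CTH, which makes cysteine, at -0.58 (adjusted p = 0.00353), MRI1 of methionine salvage at -0.28 (adjusted p = 0.00213) and the mitochondrial serine hydroxymethyltransferase SHMT2 at -0.30 (adjusted p = 0.0285). In siNON cells 3 were higher, 2 lower and 18 not called, beside 10.7% higher and 8.64% lower over all genes, and without siNON dex replicate 4 there were 5 higher and 4 lower. The number lower was 1 in 10 of 24 alternatives. The called genes included AHCYL1 at 0.30 (adjusted p = 0.000694), ADI1 at 0.36 (adjusted p = 0.00177) and the phosphorylase MTAP at -0.37 (adjusted p = 0.00138). None of the 23 was called in the interaction, and without siNON dex replicate 4 there was 1 higher and 1 lower.

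Among 21 genes of nitrogen, arginine and glutamate metabolism, 19 were tested. After depletion in dex 3 were higher, 7 lower and 9 not called, with a median of -0.07, beside 20.7% higher and 18.8% lower over all genes. The number higher was 1 without siNON dex replicate 2 or 3. The lower ones included enzymes of proline synthesis: PYCR1 had 19.9 ± 1.52 CPM in siBCOR cells with dex and 38.2 ± 2.63 in siNON cells with dex, a log2 difference of -0.94 (adjusted p = 0.000108), and ALDH18A1 was at -0.26 (adjusted p = 0.00236). The neuronal nitric oxide synthase NOS1 was at -0.59 (adjusted p = 0.00494). In vehicle 4 were higher, 1 lower and 14 not called, with a median of 0.04, beside 8.86% higher and 8.23% lower over all genes. The number higher was 2 in 12 of 24 alternatives and 3 in 9, and the number lower was 2 without siBCOR vehicle replicate 2 or siNON vehicle replicate 3. PYCR1 was again lower, at -0.73 (adjusted p = 0.00129), and among those higher were glutamine synthetase GLUL at 0.35 (adjusted p = 0.000991), the glutaminase GLS2 at 0.37 (adjusted p = 0.00259) and GATM, which starts creatine synthesis from arginine, at 0.43 (adjusted p = 0.0385).

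GLUL, which fixes ammonia in glutamine, was the 1 of the 19 called in the interaction. It had 581.4 ± 24.3 CPM with dex and 773.3 ± 50.7 with vehicle in siBCOR cells, and 629.5 ± 27.9 CPM with dex and 605.0 ± 39.0 with vehicle in siNON cells. The interaction was -0.47 ± 0.0864 (adjusted p = 0.0473), but no gene of the list was called lower under 20 of 23 alternatives, and 4 were without siNON dex replicate 4. With dex in siBCOR cells 1 of the 19 was higher, 6 were lower and 12 not called, beside 10.5% higher and 12.5% lower over all genes, and 2 were higher without siBCOR vehicle replicate 4. The lower ones included GLUL at -0.41 (adjusted p = 7.77e-05), ALDH18A1 at -0.30 (adjusted p = 0.000692) and GLS2 at -0.34 (adjusted p = 0.00254). The inducible nitric oxide synthase NOS2 was higher with dex, at 0.57 in siBCOR cells (adjusted p = 0.00161) and 0.88 in siNON cells (adjusted p = 1.82e-05). In siNON cells 3 were higher, 1 lower and 15 not called, beside 10.7% higher and 8.64% lower over all genes. The number lower was 0 in 10 of 24 alternatives and 2 without siNON dex replicate 4. Called there were NAGS, whose product N-acetylglutamate activates CPS1, at 0.59 (adjusted p = 0.00243), the aspartate-glutamate carrier SLC25A13 at 0.16 (adjusted p = 0.0383) and PYCR1 at -0.38 (adjusted p = 0.0489).

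The genes whose levels ran most like MAT1A and CPS1 over the 16 libraries were taken by Pearson's r of log2 CPM among 13429 genes, as a description in which all points share the 4 groups. For MAT1A they were CCDC103 (r = 0.968), COG2 (r = 0.964), KCNIP3 (r = 0.959), SOCS2 (r = 0.955) and RRAGC (r = 0.948). SOCS2, a suppressor of cytokine signalling, had 32.8 ± 1.36 CPM in siBCOR cells with dex, 18.7 ± 1.09 in siBCOR cells with vehicle, 10.5 ± 0.643 in siNON cells with dex and 6.87 ± 0.929 in siNON cells with vehicle. The group means of each of these genes ran in the order of MAT1A, which their choice by likeness to it favours. For CPS1 the genes most alike were GVQW3 (r = 0.962), CALCOCO2 (r = 0.958), KIF3B (r = 0.952), AGO4 (r = 0.949) and CABYR (r = 0.948). CALCOCO2, an autophagy receptor, had 116.4 ± 2.98 CPM in siBCOR cells with dex, 120.0 ± 3.21 in siBCOR cells with vehicle, 92.3 ± 4.64 in siNON cells with dex and 93.1 ± 8.61 in siNON cells with vehicle.

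BCOR peaks were given by the authors as 3055 dex-enriched, 267 vehicle-enriched and 8587 shared sites on hg19, and distances here run from the start of the counted transcript to the centre of the peak. Neither MAT1A nor CPS1 had a peak near its start. The nearest to MAT1A was a shared peak 119.0 kb upstream, at chr10:82168310-82168649, followed by a dex-enriched peak 127.0 kb upstream. The nearest to CPS1 was a shared peak 252.5 kb upstream, at chr2:211089731-211090065, and no peak lay inside the 201426 bp of the gene. From the starts of the other CPS1 transcripts this peak was 331.4 and 368.2 kb away.

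ASS1 alone of the 8 had a peak within 10 kb, a shared one at chr9:133320665-133321132, inside the gene and 804 bp downstream of its start. A peak lay within 10 kb of the start of 30.4% of the genes tested. Within 50 kb, 4 of the 8 had a peak, against 54.2% of genes tested: ASS1, ARG2, OTC and ASL. OTC itself was not tested, so it is in the member counts but not among the genes behind these shares. The nearest ARG2 peak was a shared one at chr14:68103232-68103566, inside the gene and 16.8 kb downstream of its start. Another shared peak lay 48.5 kb upstream of ARG2, at chr14:68037927-68038261, and nearer to the start of PIGH, at 28923 bp. The peak within 50 kb of OTC was a dex-enriched one 46.4 kb upstream, and that of ASL a dex-enriched one 49.6 kb downstream. Both lay outside these genes and nearer to other starts, 21408 bp from that of RPGR and 10621 bp from that of CRCP. The nearest peaks of MAT2A and MAT2B were shared ones 73.3 kb downstream and 67.7 kb upstream, which lay 233 bp from the start of C2orf68 and 268 bp from that of CCNG1. The rule behind the 3 classes is not given in the sources used here, and the lists carry no score by which to rank peaks.

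**Figure D5:**
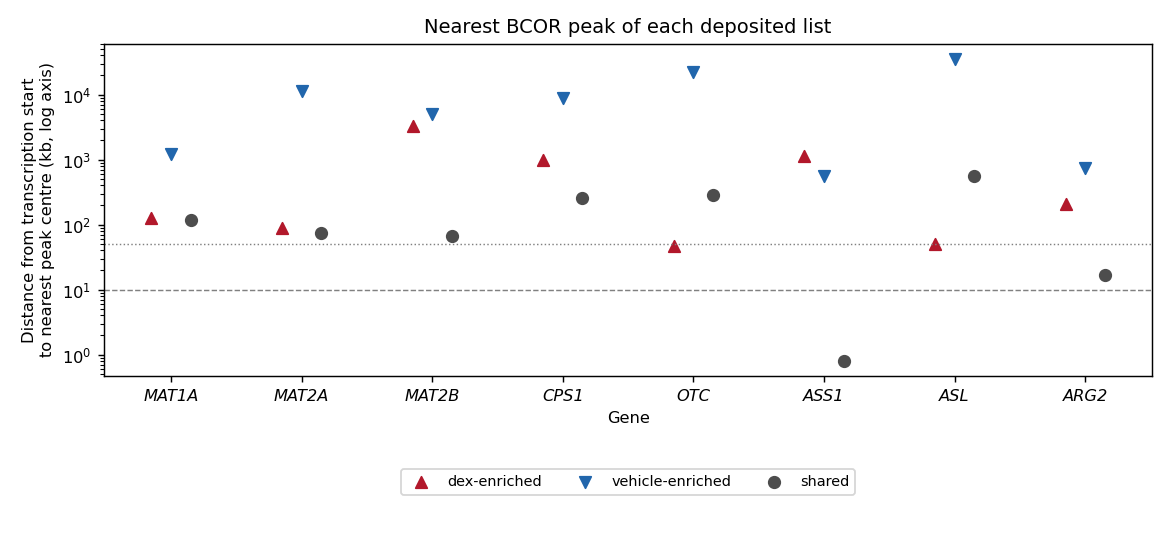
Distance in kb (y axis, log scale) from the transcription start of each gene (x axis) to the centre of the nearest dex-enriched (red), vehicle-enriched (blue) and shared (grey) BCOR peak, with lines at 10 kb (dashed) and 50 kb (dotted). The shared peak of ASS1, at 0.8 kb, is the 1 point under 10 kb, and the nearest peaks of MAT1A and CPS1 are at 119.0 and 252.5 kb.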

How the data were processed

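RNA-seq covered 16 libraries in 4 groups and BCOR ChIP-seq 2 libraries per treatment. The deposited RNA values are raw read counts over exons, made without depth adjustment by HOMER for 65572 RefSeq transcripts on hg19, per the file headers. Tools named in the submitters' processing notes are HOMER 4.10.3, Trimmomatic, FastQC, TopHat2, Bowtie 0.12.9 and bedtools. The transcript length column is deposited by the authors too. In the peak lists deposited by the authors each score is 0, and none was used. The labels' protocol gives 4 biological replicates per RNA group and the series text 3; all 4 were used.

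The transcript with most reads stood for each symbol, and the 134 transcripts without a gene name (0.0664% of counts) were left out. Isoforms share reads: counts summed over transcripts came to 2.72 to 2.77 times the library totals of 19377735 to 29452567. Whether counting used strand is not given in the sources used here. edgeR 4.0.16 (R 4.3.3, limma 3.58.1) was used with its default low-count filter, trimmed mean of M values scaling, 4 group means and quasi-likelihood F tests, with Benjamini-Hochberg adjustment at 0.05 over 16432 genes. Correlations used log2 CPM with a prior count of 2 and genes with a mean of at least 50 counts. The procedure was tested on simulated data.

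The members and gene lists were chosen with earlier results of these data known, so no test is given for what chose them. Named were the 8 members, BCOR, the 5 genes most like MAT1A and CPS1, and up to 4 called genes per list and comparison with the smallest adjusted p, of which 1 is not reported here; GGCX, VTI1B, marker genes and neighbours of peaks were named for position or list. Alternatives were DESeq2 1.42.0, other scalings, no filter, only the groups compared, a replicate block, summed transcripts, left-out libraries and other peak windows. RefSeq promoter windows matched all 8 members.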

Additional observations from a re-analysis of the deposited data

How the results depend on the processing

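Depth limits MAT1A, CPS1 and above all OTC, which rested on 39 reads in all. Of 952 recomputed values of the tested members and BCOR, 906 held, 22 lost and 7 gained a call, and 17 turned sign, none of which had been called. A value held where it kept direction and side of the threshold. The depletion differences of MAT1A and CPS1, which carry no test, held where they kept direction and moved by less than the SD within groups. For CPS1 with dex in siBCOR cells the log2 value was -0.0228 with upper-quartile scaling, -0.0055 without the filter and -0.00879 with transcripts summed, and -0.043 to 0.109 with 1 library left out. The MAT2A interaction was -0.00164 with upper-quartile scaling, -0.0136 without both siNON libraries that stood apart (replicate 4 with dex and replicate 3 with vehicle), and -0.000449 to 0.0781 with 1 library left out. With 1 library left out, ASS1 after depletion in vehicle ran from -0.146 to 0.0716, MAT2B with dex in siNON cells from -0.0859 to 0.0422, the MAT2B interaction from -0.113 to 0.0149, and the CPS1 interaction from -0.163 to 0.00474. The cause of these turns was not tested.

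After depletion, ASS1 in dex was called only with the 2 groups alone (-0.248, adjusted p = 0.0467), and ASL in vehicle also with DESeq2 (adjusted p = 0.045) and without these 2 siNON libraries (adjusted p = 0.0164). BCOR itself gained an interaction call without them (0.452, adjusted p = 0.0195).

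Genes called with 1 library left out numbered 4197 to 8172 for depletion in dex, 1809 to 3464 for depletion in vehicle, 2895 to 4544 for dex in siBCOR cells, 2530 to 4050 for dex in siNON cells and 2 to 2540 for the interaction. Without the filter, dex in siNON cells gave 1340 genes higher and 1529 lower, where it was 1760 and 1420 with it. With only the 2 groups compared, which has fewer samples, depletion in vehicle gave 1526 genes, 723 higher and 803 lower. With all 4 groups it was 1456 and 1352. Dex in siNON cells then gave 1326 higher and 1065 lower, also fewer than with all 4 groups. Depletion in dex gave 3515 higher and 3528 lower, where it was 3407 and 3084. Dex in siBCOR cells gave 2401 higher and 2314 lower, where it was 1728 and 2060. The part of the number of samples in these changes was not tested. The interaction gave 16 genes at first, 96 with DESeq2, 5 with DESeq2's size factors in edgeR, 6 with upper-quartile scaling, 5 without the filter, 4 with transcripts summed and 1790 without these 2 siNON libraries. A peak lay near 4 members in a 50 kb window and near 1 in a 10 kb window.

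Replicate numbers were not shown to pair libraries: of 24 correlations between same-numbered libraries' deviations, from -0.526 to 0.503, only 6 exceeded 0.1. With the replicate block 6422, 2665, 3752 and 3024 genes were called for depletion in dex and in vehicle and for dex in siBCOR and in siNON cells, and 3 in the interaction. ARG2 in vehicle was then not called (adjusted p = 0.0592) and ASL in vehicle was (adjusted p = 0.0455).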
